A study of Rattus norvegicus with 12 samples.

Results

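The integrated stress response genes described here are 10 transcription factors and feedback regulators: Atf4, Atf3, Atf5, Ddit3, Cebpb, Cebpg, Cebpd, Trib3, Ppp1r15a and Ppp1r15b. They were taken from the deposited tables by gene name, and all 10 were found among 32883 genes and passed the filter on low counts. RNA was sequenced in 12 libraries of 1464R cells, an immortalized adult rat neural stem cell line that was differentiated for 4 days with retinoic acid. All cells were harvested 48 h after a change of medium, with 3 libraries per group. TDP-43 + EA + Eda cells received TDP-43 adenoviruses and edaravone, a free-radical scavenger, at 50 μM at the change of medium, and ethacrynic acid (EA), an inhibitor of glutathione S-transferases, at 20 μM after a further 24 h. TDP-43 + EA cells received the viruses and ethacrynic acid without edaravone, Eda cells received edaravone alone, and Control cells received none of these. All groups had the same solvent, DMSO. The sample labels name a virus for the C-terminal fragment of TDP-43, and the methods of the study add a virus for the full-length human protein. Among the samples used here none had the viruses alone or ethacrynic acid alone, so the effects of the viruses and of ethacrynic acid cannot be told apart. The study did compare such groups, and it reports far fewer changed genes for TDP-43 alone than for ethacrynic acid alone. The study describes the libraries as coming from separate experiments, but neither it nor the labels say that a replicate number marks an experiment.

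In the integrated stress response, kinases that sense endoplasmic reticulum stress, double-stranded RNA, amino acid shortage or heme shortage phosphorylate the translation factor eIF2. This lowers protein synthesis in general while the mRNAs of a few factors, ATF4 foremost, are translated more. ATF4 and its bZIP partners, the C/EBP proteins among them, then switch on genes for amino acid supply and redox defence and, through CHOP (the product of Ddit3), genes of cell death. PPP1R15A brings protein phosphatase 1 (PP1) to eIF2 and so closes the loop, and TRIB3 binds ATF4 and CHOP and restrains them. Much of the control of ATF4 and ATF5 is translational, which RNA levels do not show.

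Library totals were 17.42 to 43.91 M counts in TDP-43 + EA + Eda (M, 1e6), 18.98 to 21.48 M in TDP-43 + EA, 21.54 to 24.64 M in Eda and 20.8 to 23.12 M in Control. The deepest was TDP-43 + EA + Eda replicate 1. Tardbp, the gene of TDP-43, was at 3672, 2045 and 2000.5 CPM in TDP-43 + EA + Eda, 1796, 1245 and 1087 CPM in TDP-43 + EA, 34.5, 36.6 and 38.7 CPM in Eda and 37.1, 39.2 and 41.1 CPM in Control, so the virus labels matched the libraries. CPM are counts per 1e6 counts after TMM scaling, except in the marker sums of this paragraph, which use library totals only. The labels call the differentiated cells motor neuron-like, but the motor neuron genes Mnx1 and Slc18a3 were at 0 in all 12 libraries, and Isl1 and Chat reached at most 10 and 2 counts. The 8 general neuronal markers summed to 246 to 407 CPM in TDP-43 + EA + Eda, 331 to 497 CPM in TDP-43 + EA, 464 to 541 CPM in Eda and 452 to 547 CPM in Control. Tubb3 and Map2 made up most of this, and Stmn2 was at 0 in all 12 libraries. The 6 neural stem cell markers summed to 841 to 990 CPM, 1016 to 1209 CPM, 796 to 973 CPM and 819 to 1040 CPM in the same order. Of 6 neuronal markers tested with TMM scaling, Map2 and Nefl rose and Tubb3 fell in TDP-43 + EA against Control in edgeR. With edaravone added to TDP-43 + EA only Nefl was called, and it fell (log2 fold change -2.54 ± 0.34 SE, adjusted p = 0.000107 in edgeR). Summed CPM of 9 oligodendrocyte lineage markers were 20518 to 26691 CPM in TDP-43 + EA + Eda, 25123 to 31754 CPM in TDP-43 + EA, 47381 to 55072 CPM in Eda and 50339 to 61799 CPM in Control. With TMM scaling, 8 of the 9 fell in TDP-43 + EA against Control in edgeR. In TDP-43 + EA + Eda relative to TDP-43 + EA 0 of the 9 were called, with a median log2 fold change of 0.082. The 6 astrocyte markers summed to 178 to 331 CPM in TDP-43 + EA + Eda, 420.5 to 617 CPM in TDP-43 + EA, 465 to 659 CPM in Eda and 366 to 558 CPM in Control, with Aqp4 at 0 in 11 libraries. Nearly all of this was Gfap and S100b. Of the 3 tested in TDP-43 + EA + Eda relative to TDP-43 + EA, Gfap fell (log2 fold change -1.39 ± 0.24 SE, adjusted p = 0.000723 in edgeR). S100b (0.069 ± 0.18 SE, adjusted p = 0.809 in edgeR) and the scarce Slc1a3 did not pass. These are bulk libraries, in which fewer cells of a type and less RNA per cell cannot be told apart, and the part of these markers in the results was not tested.

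Of the members, Trib3, Ppp1r15b, Ppp1r15a, Ddit3 and Atf5 are shown with the stretch around their transcription start, because they carry letters of motifs known for bZIP factors. The sequences come from RefSeq on assembly GRCr8, which matched 8 of the 10 members (all but Atf3 and Cebpd), and run from 250 bases before the start to 50 after it. All are written 5′ to 3′ along the gene. Capitals mark TGATGNAA, the composite site of C/EBP and ATF proteins, in Trib3 and Ppp1r15b, TGACGTCA, the cAMP response element, in Ppp1r15a, and TGANTCA, the AP-1 site, in Ppp1r15a, Ddit3 and Atf5, which are all matches of these 3 motifs in the 8 promoters.
Trib3 (chr3:161275484-161275783, minus strand): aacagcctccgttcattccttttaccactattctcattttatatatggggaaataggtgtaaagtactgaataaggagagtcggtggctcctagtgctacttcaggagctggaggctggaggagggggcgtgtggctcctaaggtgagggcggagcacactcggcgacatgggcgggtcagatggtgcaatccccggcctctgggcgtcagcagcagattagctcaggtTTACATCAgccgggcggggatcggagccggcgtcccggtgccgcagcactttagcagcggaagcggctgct
Ppp1r15b (chr13:47129750-47130049, plus strand): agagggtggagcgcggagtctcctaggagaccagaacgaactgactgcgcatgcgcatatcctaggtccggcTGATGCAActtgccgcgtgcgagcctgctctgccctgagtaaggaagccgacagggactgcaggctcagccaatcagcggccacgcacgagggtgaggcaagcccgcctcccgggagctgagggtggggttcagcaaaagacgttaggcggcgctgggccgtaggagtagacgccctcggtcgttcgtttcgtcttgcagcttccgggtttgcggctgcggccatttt
Ppp1r15a (chr1:105139547-105139846, minus strand): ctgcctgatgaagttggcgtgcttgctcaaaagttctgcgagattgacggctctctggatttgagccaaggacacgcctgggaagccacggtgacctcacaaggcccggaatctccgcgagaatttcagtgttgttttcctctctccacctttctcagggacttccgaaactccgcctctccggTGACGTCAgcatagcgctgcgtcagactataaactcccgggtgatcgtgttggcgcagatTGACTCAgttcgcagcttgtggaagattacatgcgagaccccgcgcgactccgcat
Ddit3 (chr7:65001445-65001744, plus strand): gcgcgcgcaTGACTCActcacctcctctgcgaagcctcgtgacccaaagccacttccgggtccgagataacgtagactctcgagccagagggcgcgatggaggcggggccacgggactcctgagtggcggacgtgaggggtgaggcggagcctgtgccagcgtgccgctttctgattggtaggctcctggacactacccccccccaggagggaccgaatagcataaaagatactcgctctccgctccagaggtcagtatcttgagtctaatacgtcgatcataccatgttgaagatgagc
Atf5 (chr1:104434746-104435045, minus strand): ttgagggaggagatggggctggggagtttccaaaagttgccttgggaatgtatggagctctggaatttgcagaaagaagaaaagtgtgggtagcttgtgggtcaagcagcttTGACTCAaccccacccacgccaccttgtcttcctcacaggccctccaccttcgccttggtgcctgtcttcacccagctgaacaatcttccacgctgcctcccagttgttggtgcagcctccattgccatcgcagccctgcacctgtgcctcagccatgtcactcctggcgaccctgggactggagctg
The capitals begin 21 bases before the start in Trib3, 178 in Ppp1r15b, 66 and 6 in Ppp1r15a, 241 in Ddit3 and 138 in Atf5. Searched on both strands, TGATGNAA stood in 2 of the 8 member promoters and in 3.98% of all 33469, and TGACGTCA in 1 of 8 and in 1.83%. For TGANTCA the counts were 3 of 8 and 7.33%, and for CCAAT 3 of 8 and 37.5%. TGACNNNGC, the core of the antioxidant response element, was in 4 of 8 and in 12.1%, and TATAAA in 4 of 8 and in 14.2%. No match of one motif overlapped one of another in these 8 promoters. Such a match describes letters and is not evidence of binding.

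In cells with TDP-43 and ethacrynic acid, 8 of the 10 members were higher with edaravone than without. Atf4, Atf3, Ddit3, Cebpb, Cebpg, Trib3, Ppp1r15a and Ppp1r15b rose in TDP-43 + EA + Eda relative to TDP-43 + EA. Atf5 and Cebpd did not pass the threshold, an adjusted p (Benjamini-Hochberg, edgeR quasi-likelihood test) of at most 0.05. Of all 13230 genes tested, 15.4% rose and 15% fell, or 30.4% in either direction. The median log2 fold change of the 10 members was 0.89, against -0.018 over all genes tested. In each of these 8 members every library with edaravone lay above every one without, as in 19.5% of all genes, and 39.8% had no overlap in either direction. Cebpb, Ddit3 and Ppp1r15a were also DEGs, meaning that the log2 fold change was also 1 or more in size, as in 5.85% of genes. Without the deepest library, TDP-43 + EA + Eda replicate 1, the same 8 members rose, with log2 fold changes between 0.55 and 1.58, and 2 remained DEGs. Without replicate 2 of that group 5 members were DEGs. The split of all calls depended on the scaling, at 50.6% higher with TMM, 37.3% with upper quartile factors, 16.9% with log2(TPM + 1) and 15.3% with library totals only, and the 8 members rose under each of these.

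**Figure D1:**
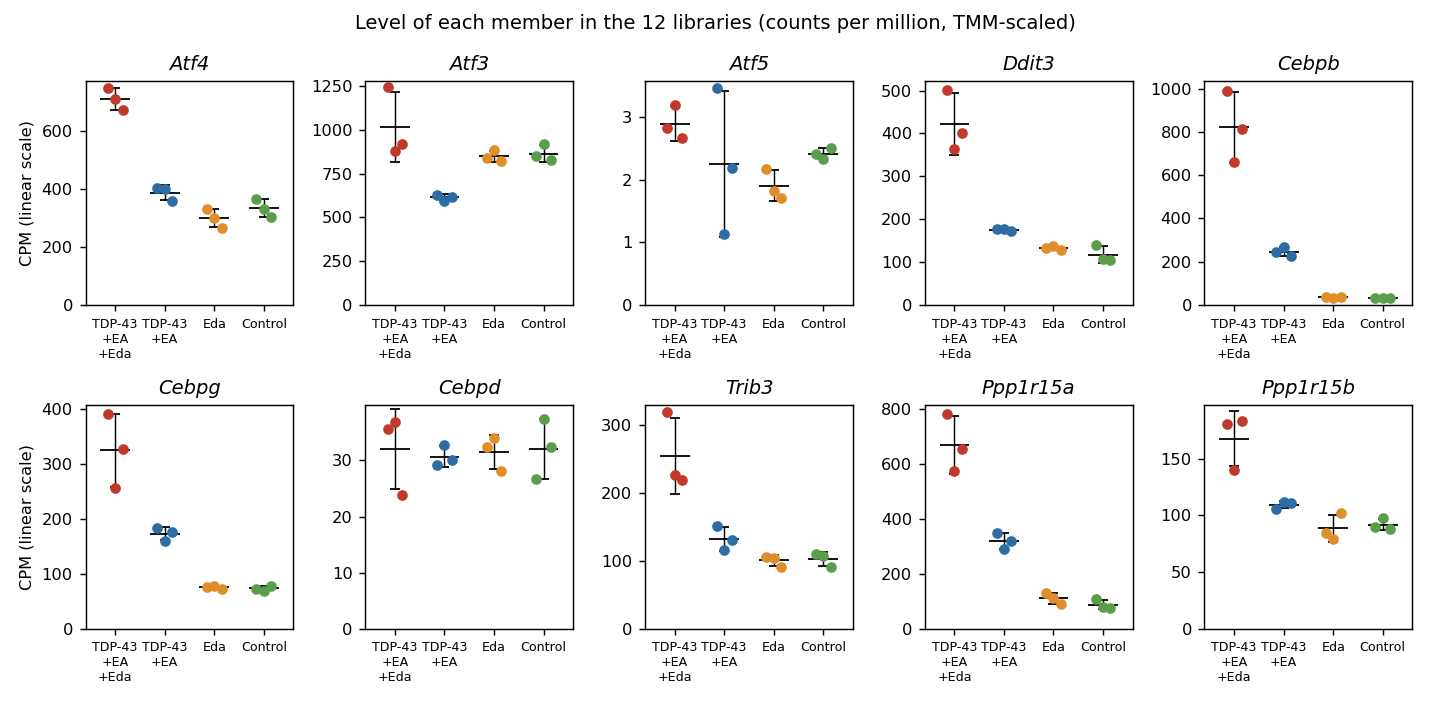
Level of the 10 members in CPM (linear vertical axes from 0) in the 3 libraries of each group, with TDP-43 + EA + Eda at the left and Control at the right. Bars give the mean and the SD (n = 3), and in 8 panels the TDP-43 + EA + Eda points all lie above those of TDP-43 + EA, Atf5 and Cebpd being the exceptions.

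TDP-43 and ethacrynic acid without edaravone moved the same genes less evenly. In TDP-43 + EA against Control, Cebpb, Cebpg, Ppp1r15a and Ddit3 rose, Atf3 fell, and Atf4, Atf5, Cebpd, Trib3 and Ppp1r15b did not pass, with 19.6% of all genes rising and 18.7% falling (38.3% together). The median of the members was 0.31, against 0.0022 over all genes, and the range ran from -0.49 to 2.96. Cebpb, Ppp1r15a and Cebpg were DEGs, as were 11.8% of genes. The libraries of both groups did not overlap for 7 members, of which 6 were higher in TDP-43 + EA, against 51.4% and 25.6% of all genes. This comparison and the one before share the TDP-43 + EA libraries, so their values are set side by side and not correlated.

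**Figure D2:**
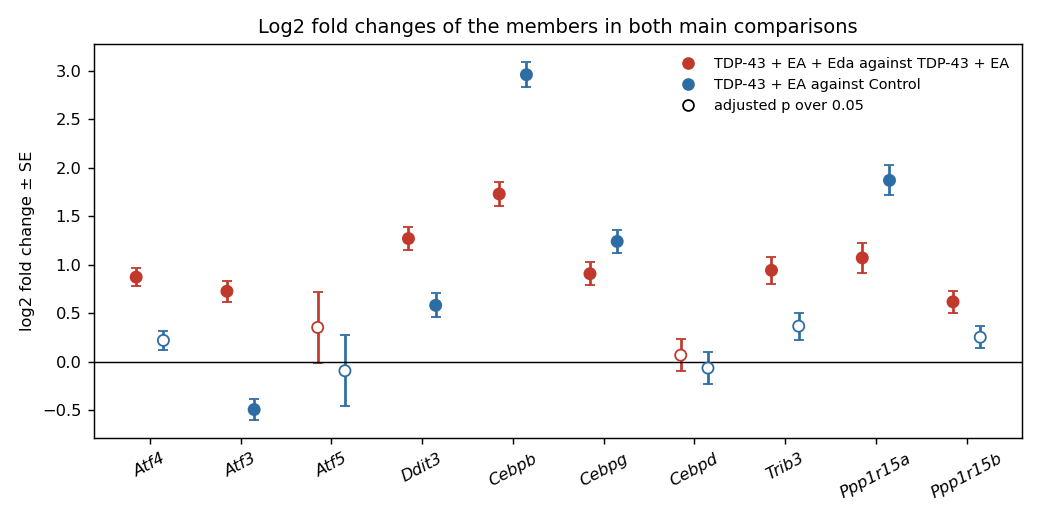
Log2 fold change of each member with its SE (vertical axis) in TDP-43 + EA + Eda relative to TDP-43 + EA (red) and in TDP-43 + EA against Control (blue), from 3 libraries per group. Filled points passed an adjusted p of 0.05. Atf3 is the member whose blue point, at -0.49, is called below 0 while its red point, at 0.73, is called above it.

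Atf4 (ENSRNOG00000017801, chromosome 7 from 121480723 to 121482772 of Rnor_6.0), the effector that gives the pathway its transcriptional arm, was high with edaravone. Atf4 was at 749.8, 711 and 673 CPM in TDP-43 + EA + Eda, against 405, 402 and 359 CPM in TDP-43 + EA. It was at 332, 301 and 268 CPM in Eda and at 367, 331 and 304 CPM in Control. The 3 libraries with viruses, ethacrynic acid and edaravone stood apart from all others, while TDP-43 + EA and Control overlapped. Atf4 was 1.83-fold higher with edaravone (log2 fold change 0.87 ± 0.097 SE, adjusted p = 2.79e-05 in edgeR). In TDP-43 + EA against Control its value did not pass (log2 fold change 0.22 ± 0.096 SE, adjusted p = 0.0871 in edgeR). It did pass in 2 of 22 other settings, with replicate number as a block (edgeR adjusted p = 0.00845) and without Control replicate 1 (edgeR adjusted p = 0.0497).

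Atf3 (ENSRNOG00000003745, chromosome 13 from 109817728 to 109849632) codes for a stress-inducible bZIP factor that can repress as well as activate. The TDP-43 + EA + Eda libraries held 1246, 880.2 and 918 CPM of Atf3, against 629, 594 and 618 CPM in TDP-43 + EA. The Eda libraries had 841, 882 and 823 CPM of Atf3 and the Control libraries 849, 917 and 827 CPM. It was the lowest in all 3 TDP-43 + EA libraries, with no overlap with any other group. Atf3 fell in TDP-43 + EA against Control (log2 fold change -0.49 ± 0.11 SE, adjusted p = 0.00258 in edgeR) and rose with edaravone (log2 fold change 0.73 ± 0.11 SE, adjusted p = 0.000265 in edgeR). TDP-43 + EA + Eda replicate 1 stood far above its group, and without it the rise was 0.55 on the log2 scale (SE 0.076, edgeR adjusted p = 0.000286). Against Control, Atf3 in TDP-43 + EA + Eda did not pass (log2 fold change 0.23 ± 0.11 SE, adjusted p = 0.0857 in edgeR), and it was at 0.063 without replicate 1 of TDP-43 + EA + Eda (edgeR adjusted p = 0.514). It passed without replicate 2 or 3 of that group (edgeR adjusted p = 0.0168 and 0.0477), whereas its sign turned with library totals only (-0.093) and on both log2 TPM scales (-0.14). The median of all genes was -0.395 with library totals only and -0.331 on log2(TPM + 1).

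Atf5 (ENSRNOG00000020060, chromosome 1 from 100808241 to 100810522), a factor close to ATF4 in sequence, was scarce. Its levels were 2.83, 3.20 and 2.67 CPM in TDP-43 + EA + Eda, 3.46, 1.13 and 2.19 CPM in TDP-43 + EA, 2.18, 1.83 and 1.70 CPM in Eda and 2.42, 2.34 and 2.51 CPM in Control. The TDP-43 + EA libraries spanned the values of every other group. Neither the comparison with edaravone (log2 fold change 0.35 ± 0.37 SE, adjusted p = 0.508 in edgeR) nor that of TDP-43 + EA against Control (log2 fold change -0.094 ± 0.37 SE, adjusted p = 0.865 in edgeR) passed.

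Ddit3 (ENSRNOG00000006789, chromosome 7 from 70580198 to 70585084) codes for CHOP, which ATF4 induces and which promotes cell death under lasting stress. Ddit3 was at 502, 363 and 400.3 CPM in TDP-43 + EA + Eda, against 176, 177 and 172 CPM in TDP-43 + EA. It was at 134, 137 and 128 CPM in Eda and at 140.2, 107 and 104 CPM in Control. TDP-43 + EA + Eda was on top, and TDP-43 + EA lay between it and the groups without viruses. Ddit3 was 2.41-fold higher with edaravone (log2 fold change 1.27 ± 0.12 SE, adjusted p = 1.01e-05 in edgeR) and 1.5-fold higher in TDP-43 + EA than in Control (log2 fold change 0.58 ± 0.12 SE, adjusted p = 0.0017 in edgeR). The last 72 bases of the gene overlap Mars1 on the opposite strand, and the strand setting of the counting is not given in the sources used here, so reads from those bases cannot be assigned. Mars1, a methionyl-tRNA synthetase gene, was at 133, 190.4 and 155 CPM in TDP-43 + EA + Eda, 114, 129.8 and 133 CPM in TDP-43 + EA and 201, 187 and 176 CPM in Control. In TDP-43 + EA against Control Mars1 fell (log2 fold change -0.58 ± 0.12 SE, adjusted p = 0.00116 in edgeR), while in TDP-43 + EA + Eda relative to TDP-43 + EA it rose, as Ddit3 did, with overlapping libraries (log2 fold change 0.34 ± 0.12 SE, adjusted p = 0.0377 in edgeR).

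Of the C/EBP factors, Cebpb (ENSRNOG00000057347, chromosome 3 from 164424515 to 164425910), a partner of ATF4 with roles in inflammation and stress, had the largest fold changes of the 10 members in each comparison that involved the viruses. The TDP-43 + EA + Eda libraries held 988, 661 and 814 CPM of Cebpb, against 247, 269.7 and 225 CPM in TDP-43 + EA. The Eda libraries had 37.3, 33.6 and 37.7 CPM of Cebpb and the Control libraries 34.4, 30.3 and 30.6 CPM. No library of one virus group reached another group, and the Eda and Control libraries lay close together. Cebpb rose 3.32-fold with edaravone (log2 fold change 1.73 ± 0.12 SE, adjusted p = 1.62e-06 in edgeR) on top of 7.77-fold in TDP-43 + EA against Control (log2 fold change 2.96 ± 0.13 SE, adjusted p = 1.18e-09 in edgeR).

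Cebpg (ENSRNOG00000021144, chromosome 1 from 91287917 to 91296656), which lacks an activation domain of its own and pairs with ATF4, followed the same order. Cebpg was at 389.9, 256 and 327 CPM in TDP-43 + EA + Eda, against 183, 159.8 and 176 CPM in TDP-43 + EA. It was at 76.4, 77.2 and 72.0 CPM in Eda and at 72.6, 69.3 and 77.9 CPM in Control. Both virus groups lay above the groups without viruses and apart from each other, and Eda and Control overlapped. Its rise was 1.88-fold with edaravone (log2 fold change 0.91 ± 0.12 SE, adjusted p = 9.55e-05 in edgeR) and 2.36-fold in TDP-43 + EA against Control (log2 fold change 1.24 ± 0.12 SE, adjusted p = 2.28e-06 in edgeR).

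Cebpd (ENSRNOG00000050869, chromosome 11 from 89008008 to 89009146), an acute-phase member of the family, showed no such order. The TDP-43 + EA + Eda libraries held 35.5, 36.8 and 23.9 CPM of Cebpd, against 29.2, 32.8 and 30.0 CPM in TDP-43 + EA. The Eda libraries had 32.3, 34.0 and 28.1 CPM of Cebpd and the Control libraries 26.6, 37.3 and 32.4 CPM. All 4 groups overlapped. Neither the comparison with edaravone (log2 fold change 0.067 ± 0.16 SE, adjusted p = 0.799 in edgeR) nor TDP-43 + EA against Control (log2 fold change -0.066 ± 0.16 SE, adjusted p = 0.782 in edgeR) passed. In the first of these the sign turned below 0 with library totals only, upper quartile factors or log2(TPM + 1), and without replicate 1 or 2 of TDP-43 + EA + Eda (-0.018 and -0.034). The medians of all genes with these scalings were -0.297, -0.101 and -0.211.

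Among the feedback genes, Trib3 (ENSRNOG00000007319, chromosome 3 from 147813473 to 147819571), a pseudokinase gene that ATF4 and CHOP induce, was highest with edaravone. Trib3 was at 318, 226 and 218 CPM in TDP-43 + EA + Eda, against 151, 116 and 130.2 CPM in TDP-43 + EA. It was at 106, 104 and 91.1 CPM in Eda and at 110.4, 107 and 90.9 CPM in Control. TDP-43 + EA + Eda did not overlap any other group, and replicate 1 stood above the other 2. Trib3 rose 1.92-fold with edaravone (log2 fold change 0.94 ± 0.14 SE, adjusted p = 0.000214 in edgeR). In TDP-43 + EA against Control all 3 libraries were higher, but the value fell just short of the threshold (log2 fold change 0.37 ± 0.14 SE, adjusted p = 0.0505 in edgeR). It passed in 10 of 22 other settings, among them with replicate number as a block (edgeR adjusted p = 0.00813). The value also passed without TDP-43 + EA replicate 2 (edgeR adjusted p = 0.034) and without replicate 1, 2 or 3 of TDP-43 + EA + Eda (edgeR adjusted p = 0.0111, 0.0396 and 0.0418).

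Ppp1r15a (ENSRNOG00000020938, chromosome 1 from 101511901 to 101514974), the stress-inducible PP1 subunit also known as GADD34, was second to Cebpb in TDP-43 + EA against Control. The TDP-43 + EA + Eda libraries held 779, 573 and 652 CPM of Ppp1r15a, against 349, 291 and 318 CPM in TDP-43 + EA. The Eda libraries had 131, 109.8 and 90.4 CPM of Ppp1r15a and the Control libraries 107, 79.3 and 76.3 CPM. The virus groups were apart from each other and from both other groups. It was 2.09-fold higher with edaravone (log2 fold change 1.07 ± 0.15 SE, adjusted p = 0.000161 in edgeR) and 3.65-fold higher in TDP-43 + EA than in Control (log2 fold change 1.87 ± 0.16 SE, adjusted p = 4.71e-07 in edgeR). Ppp1r15b (ENSRNOG00000028493, chromosome 13 from 49933155 to 49940961), the subunit that keeps eIF2 dephosphorylated in unstressed cells, moved less. Ppp1r15b was at 181, 140.1 and 183 CPM in TDP-43 + EA + Eda, against 106, 112 and 111 CPM in TDP-43 + EA. It was at 84.1, 79.5 and 102 CPM in Eda and at 89.6, 98.0 and 88.3 CPM in Control. Its rise with edaravone was 1.53-fold (log2 fold change 0.62 ± 0.11 SE, adjusted p = 0.000884 in edgeR). In TDP-43 + EA against Control the libraries did not overlap, but the value did not pass (log2 fold change 0.25 ± 0.11 SE, adjusted p = 0.089 in edgeR), though it passed in 2 of 22 other settings, among them without TDP-43 + EA + Eda replicate 2 (edgeR adjusted p = 0.0341).

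Tardbp moved with these genes, since edaravone went with more of it in the virus-treated cells (log2 fold change 0.90 ± 0.21 SE, adjusted p = 0.00438 in edgeR). Replicate 1 of TDP-43 + EA + Eda had the highest Tardbp and also the highest level of Atf4, Atf3, Ddit3, Cebpb, Cebpg, Trib3 and Ppp1r15a of the 3. The part of Tardbp in the rise of the members was not tested.

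Edaravone without viruses or ethacrynic acid was tested next, which asks what the drug does in cells that received neither. In Eda against Control 0 of 10 members and 0% of the genes tested rose or fell in edgeR, in DESeq2 0 members and 8 genes did, and in limma-trend 0 members. At an unadjusted p of under 0.05 edgeR had 1 member, Ppp1r15a, and 539 genes. Log2 fold changes of the members ran from -0.34 in Atf5 to 0.34 in Ppp1r15a. The 3 Eda libraries were all lower than the 3 Control libraries in Atf5 alone, and 12.6% of all genes had no overlap in either direction.

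The difference between the effects of edaravone with and without TDP-43 + EA was tested as an interaction in the same fit. It was called above 0 in 8 members, the 8 that rose in TDP-43 + EA + Eda relative to TDP-43 + EA, as it was in 8.42% of all genes, with 7.04% below 0 and 15.5% in all, and the median was 0.81, against -0.019 over all genes. Cebpb had the largest difference (log2 1.54 ± 0.18 SE, adjusted p = 0.000256 in edgeR), followed by Ddit3 (log2 1.08 ± 0.17 SE, adjusted p = 0.00135 in edgeR) and Atf4 (log2 1.03 ± 0.14 SE, adjusted p = 0.000469 in edgeR). In Atf4 the effects pointed in opposite directions, 0.87 with TDP-43 + EA and -0.16 without, although the second did not pass. Trib3 (log2 0.97 ± 0.20 SE, adjusted p = 0.00495 in edgeR), Cebpg (log2 0.87 ± 0.17 SE, adjusted p = 0.00413 in edgeR), Atf3 (log2 0.75 ± 0.16 SE, adjusted p = 0.00575 in edgeR) and Ppp1r15b (log2 0.67 ± 0.16 SE, adjusted p = 0.0109 in edgeR) came next. The call of Ppp1r15a was the least firm (log2 0.73 ± 0.21 SE, adjusted p = 0.0327 in edgeR). It was lost in 12 of 21 other settings, with an edgeR adjusted p of 0.055 to 0.0932 without replicate 1 or 3 of TDP-43 + EA + Eda, 2 or 3 of TDP-43 + EA, 2 or 3 of Eda, or 1 of Control.

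**Figure D3:**
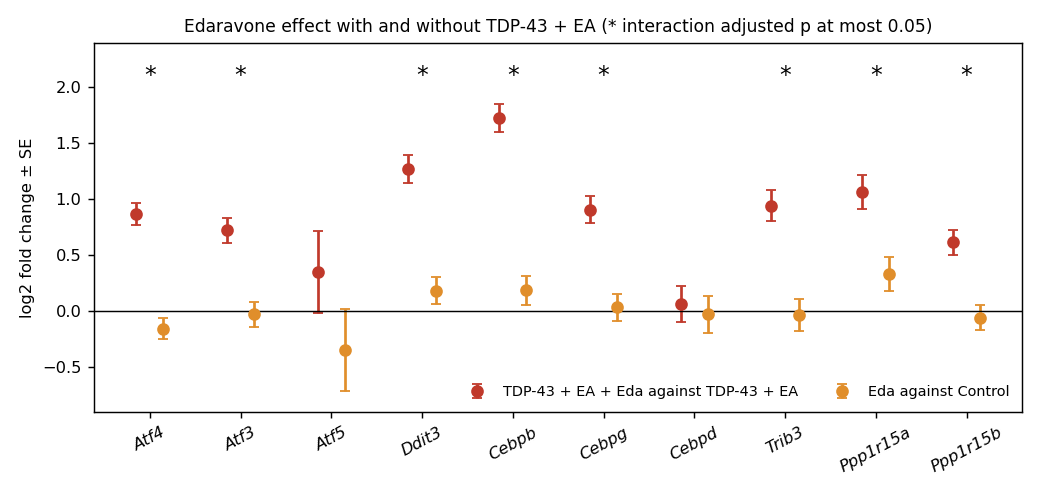
Log2 fold change with SE (vertical axis) that edaravone gave for each member in cells with TDP-43 + EA (red, TDP-43 + EA + Eda relative to TDP-43 + EA) and in cells without (orange, Eda against Control), 3 libraries per group. Asterisks mark an interaction with an adjusted p of at most 0.05, in 8 members. The orange points lie between -0.34 and 0.34 and none of them passed on its own.

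With both steps combined, TDP-43 + EA + Eda against Control, 7 members rose, against 27.1% of all genes (30.4% fell, 57.5% in all), and 6 were DEGs, against 23.9%. Cebpb was 25.8-fold higher (log2 fold change 4.69 ± 0.14 SE, adjusted p = 8.01e-12 in edgeR), Ppp1r15a 7.65-fold (log2 fold change 2.93 ± 0.16 SE, adjusted p = 1.9e-09 in edgeR) and Cebpg 4.43-fold (log2 fold change 2.15 ± 0.12 SE, adjusted p = 3.12e-09 in edgeR). Ddit3, Trib3, Atf4 and Ppp1r15b rose by 1.85, 1.31, 1.09 and 0.87 on the log2 scale. Cebpd had a log2 fold change of 0.00073 (edgeR adjusted p = 0.997) with TMM scaling but of -0.39 on log2(TPM + 1), where limma-trend called it lower (adjusted p = 0.0408). In that setting the median of all genes was -0.331, with 6300 of 13230 genes called lower and 2211 higher.

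Levels can be set side by side between genes only per length, so the authors' TPM, which divide reads by transcript length and sum to 1e6 per library, are used here. In Control the order was Atf3 at 715 (SD 50.5) TPM, Atf4 at 404 (SD 37.3) and Ddit3 at 267 (SD 42.3), with no overlap between neighbours. Trib3, Ppp1r15a, Cebpd and Cebpb followed at 83.2, 66.5, 58.1 and 52.7 TPM and overlapped in sequence. In TDP-43 + EA + Eda Cebpb led at 1032 (SD 157) TPM, ahead of Ddit3 at 765 (SD 122), Atf4 at 674 (SD 23.8) and Atf3 at 656 (SD 120), and each of these overlapped the next. In TDP-43 + EA, Atf3 was at 473 (SD 15.2), Atf4 at 438 (SD 24.4), Ddit3 at 377 (SD 4.95) and Cebpb at 372 (SD 32.9) TPM, of which the last pair overlapped. Atf5 was the lowest in each group, at 4.22 TPM in TDP-43 + EA + Eda and 4.65 TPM in Control. The 10 members summed to 3413 to 4430.0 TPM in TDP-43 + EA + Eda, 2097 to 2189 TPM in TDP-43 + EA, 1637 to 1833 TPM in Eda and 1579 to 1787 TPM in Control.

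Because Cebpb rose and Cebpd did not, the make-up of the C/EBP family differed between the groups. Cebpb held 85.8 to 87.5% of the summed TPM of Cebpa, Cebpb, Cebpd, Cebpe and Cebpg in TDP-43 + EA + Eda, 73.0 to 76.9% in TDP-43 + EA, 37.2 to 42.5% in Eda and 34.0 to 41.5% in Control. Cebpd held 2.81 to 5.12% in TDP-43 + EA + Eda, 9.61 to 10.7% in TDP-43 + EA, 34.6 to 40.3% in Eda and 34.7 to 45.3% in Control. The shares of the virus groups overlapped neither each other nor those of the groups without viruses, and Eda and Control overlapped. In the PP1 pair, the ratio of Ppp1r15a to Ppp1r15b TPM was 10.2 to 12.3 in TDP-43 + EA + Eda, 7.36 to 9.31 in TDP-43 + EA, 2.50 to 4.40 in Eda and 2.30 to 3.37 in Control, with the same separation. The ratio of Atf3 to Atf4 was 0.848 to 1.13 in TDP-43 + EA + Eda and 1.00 to 1.17 in TDP-43 + EA, against 1.74 to 2.10 in Eda and 1.58 to 1.89 in Control. The ratio of Ddit3 to Atf4 was 0.974 to 1.28, 0.822 to 0.923, 0.749 to 0.882 and 0.607 to 0.718 in the order TDP-43 + EA + Eda, TDP-43 + EA, Eda and Control. No test was run on these shares and ratios.

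**Figure D4:**
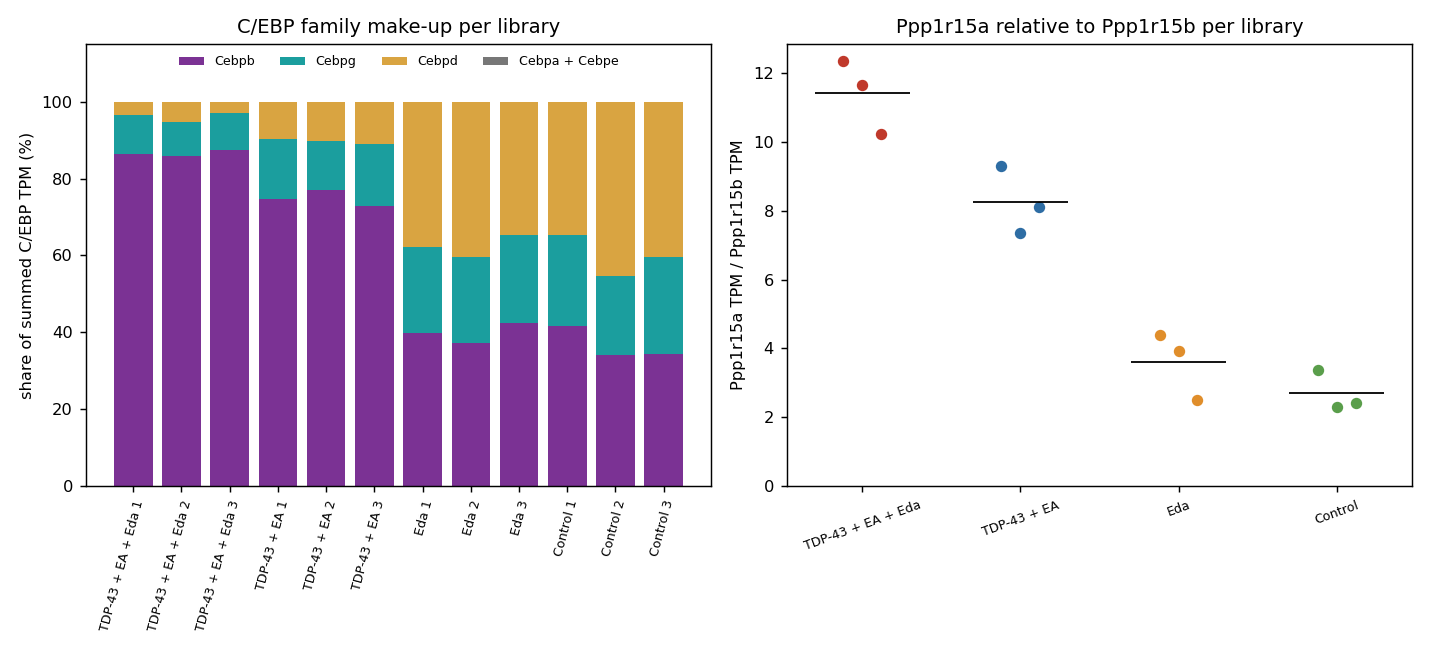
Left, share of the summed C/EBP TPM (vertical axis, %) held by each family member in the 12 libraries, 1 bar per library, with Cebpb at 85.8% to 87.5% in TDP-43 + EA + Eda and 34.0% to 41.5% in Control. Right, Ppp1r15a TPM divided by Ppp1r15b TPM (linear axis from 0), points for libraries and lines for group means.

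The rest of the pathway was read from lists of genes. Of 28 tested targets of ATF4 and CHOP, 16 rose in TDP-43 + EA + Eda relative to TDP-43 + EA (15.4% of all genes) and the other 12 did not pass, with a median log2 fold change of 0.42 (-0.018 over all genes). With library totals only 9 rose, and on log2(TPM + 1) 10 rose, where 816 and 872 of all 13230 genes did. The medians of the targets were then 0.141 and 0.165, against -0.297 and -0.211 over all genes. Slc38a2, an amino acid transporter gene, was at 882 (SD 60.8) CPM in TDP-43 + EA + Eda and 406 (SD 14.1) CPM in TDP-43 + EA, which passed (log2 fold change 1.12 ± 0.092 SE, adjusted p = 3.96e-06 in edgeR). Slc3a2, the shared chain of amino acid exchangers, also rose (log2 fold change 1.06 ± 0.10 SE, adjusted p = 1.2e-05 in edgeR). So did Chac1, which breaks down glutathione (log2 fold change 1.12 ± 0.15 SE, adjusted p = 0.000115 in edgeR), Sesn2, a stress-inducible regulator of mTORC1 (log2 fold change 0.87 ± 0.11 SE, adjusted p = 7.51e-05 in edgeR), and Asns, asparagine synthetase (log2 fold change 0.51 ± 0.1 SE, adjusted p = 0.0016 in edgeR). Against Control, TDP-43 + EA had 9 targets higher (19.6% of all genes), 3 lower (18.7%) and 16 not called, with a median of 0.12. Gdf15, a stress cytokine gene, rose to 11.3 (SD 3.24) CPM in TDP-43 + EA, against 0.0832 (SD 0.111) CPM in Control, where its counts were too few for a fold. Bcl2l11, which codes for the pro-apoptotic BIM, was higher too (log2 fold change 1.91 ± 0.16 SE, adjusted p = 4.31e-07 in edgeR). Psat1, of serine synthesis, fell (log2 fold change -0.98 ± 0.10 SE, adjusted p = 3.29e-06 in edgeR), as did Vldlr (log2 fold change -1.09 ± 0.12 SE, adjusted p = 9.86e-06 in edgeR). The interaction was called above 0 in 14 of the 28, against 8.42% of all genes, with a median of 0.585. With library totals only it was called above 0 in 6 and on log2(TPM + 1) also in 6, with medians of 0.277 and 0.28. In these settings it was called above 0 in 377 and 411 of all genes, with medians of -0.325 and -0.241.

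Of the step ahead of ATF4, 18 genes were tested. Among these eIF2 kinases and translation machinery genes, 4 rose and 3 fell in TDP-43 + EA + Eda relative to TDP-43 + EA, where 15.4% and 15% of all genes did, and 4 rose and 3 fell in TDP-43 + EA against Control, where 19.6% and 18.7% did. With library totals only, 2 rose and 10 fell in the first of these, where 816 of all 13230 genes rose and 4520 fell. The median of the list was then -0.326, against -0.297 over all genes. Dnajc3, an inhibitor of eIF2 kinases, rose with edaravone (log2 fold change 0.78 ± 0.088 SE, adjusted p = 3.47e-05 in edgeR), as did Impact, which restrains the kinase GCN2 (log2 fold change 0.71 ± 0.11 SE, adjusted p = 0.000388 in edgeR). Eif2b5, a subunit of the exchange factor that eIF2 phosphorylation blocks, fell (log2 fold change -0.94 ± 0.12 SE, adjusted p = 6.88e-05 in edgeR), and so did Eif2ak2, the kinase PKR (log2 fold change -0.44 ± 0.12 SE, adjusted p = 0.0152 in edgeR). Of the 3 catalytic subunits of PP1, Ppp1cb rose (log2 fold change 0.35 ± 0.087 SE, adjusted p = 0.0078 in edgeR) and Ppp1cc fell (log2 fold change -0.24 ± 0.077 SE, adjusted p = 0.0312 in edgeR). With library totals only, Ppp1cb was not called and Ppp1ca and Ppp1cc were called lower, as were 4520 of all genes.

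Among 25 tested bZIP partners and Tribbles relatives, 9 rose and 1 fell with edaravone (15.4% and 15% of all genes), and 10 rose and 5 fell in TDP-43 + EA against Control (19.6% and 18.7%). Fosl1, an AP-1 subunit, was at 338 (SD 101.2) CPM in TDP-43 + EA + Eda and 105 (SD 29.3) CPM in TDP-43 + EA, which passed (log2 fold change 1.69 ± 0.22 SE, adjusted p = 8.03e-05 in edgeR), and at 1.38 (SD 0.534) CPM in Control. Nfe2l2, which codes for Nrf2, rose with edaravone (log2 fold change 0.96 ± 0.12 SE, adjusted p = 8.42e-05 in edgeR), and Dbp, a clock-output factor, fell (log2 fold change -0.25 ± 0.083 SE, adjusted p = 0.0358 in edgeR). Junb rose in TDP-43 + EA against Control (log2 fold change 3.58 ± 0.22 SE, adjusted p = 2.22e-08 in edgeR), while Atf6b (log2 fold change -0.53 ± 0.077 SE, adjusted p = 8.54e-05 in edgeR) and Atf2 (log2 fold change -0.44 ± 0.13 SE, adjusted p = 0.0172 in edgeR) fell. With library totals only, 7 rose and 3 fell in TDP-43 + EA + Eda relative to TDP-43 + EA. In that setting 816 of all 13230 genes rose and 4520 fell. These lists overlap the members in function, so their counts describe and do not support the members' results.

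Across the 12 libraries, which share their groups and so are not independent points, Cebpb and Cebpg followed each other (Pearson r 0.99 on log2 CPM), as did Cebpb and Ppp1r15a (0.99), Ddit3 and Trib3 (0.97) and Atf4 and Trib3 (0.97). Atf3 correlated with Cebpb at 0.078 and with Atf4 at 0.41, and Cebpd with the other members at -0.13 to 0.23. The genes most like each member over the 12 libraries were Nars1 for Atf4 (r 0.991), Cd164 for Atf3 (0.969), Gpc6 for Atf5 (0.863), Ctsb for Ddit3 (0.99) and Sun2 for Cebpb (0.998). For Cebpg it was Cpeb4 (0.997), for Trib3 Pacc1 (0.99), for Ppp1r15a Nfe2l2 (0.995) and for Ppp1r15b Hinfp (0.98). The closest gene to Cebpd, AABR07062570.1, reached 0.831.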

How the data were processed

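Total RNA of the 12 samples was reverse-transcribed with SMART-Seq v4 and made into Nextera XT libraries. The submitters' processing notes name bcl2fastq 2.20, DRAGEN, Rnor_6.0, R 3.6.0 and DESeq2 1.26.0. The authors deposited expected counts, which are reads per gene as estimated by DRAGEN and carry no normalization. The strand setting is not given in the sources used here. The deposited TPM were made by the authors from reads per transcript, its length and the library sum.

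Expected counts were rounded. Genes kept by the edgeR 4.0.16 filter (13230 of 19455 with a count) were scaled by TMM and fitted over all 12 libraries with a robust quasi-likelihood model in R 4.3.3. P-values were adjusted (Benjamini-Hochberg) per comparison over all genes tested, and the fit was tested on simulated data. DEGs follow the thresholds of the study, a log2 fold change of 1 or more in size at an adjusted p of 0.05 or less. Totals were 17.42 to 43.91 M counts, and no replicates were near copies of each other. The members and gene lists were chosen with earlier results of these data known. Named list genes are the 2 with the smallest adjusted p in each direction; Chac1, Sesn2, Asns and Ppp1ca were named after their values were seen. Likeness is Pearson r on log2 CPM (prior count 2). Alternatives were DESeq2 1.42.0 with plain and shrunken fold changes, 3 other scalings, no count filter, limma-trend (limma 3.58.1) on log2(TPM + 1) and log2(TPM + 0.1), only the groups compared, a replicate block and each library left out.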

Additional observations from a re-analysis of the deposited data

Results flagged for a closer look

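For 8 of the 10 members the effect of edaravone differed between cells with TDP-43 + EA and cells without, by an edgeR test of the difference itself. The differences, with TDP-43 + EA minus without, were 1.54 in Cebpb, 1.08 in Ddit3, 1.03 in Atf4, 0.975 in Trib3, 0.869 in Cebpg, 0.752 in Atf3, 0.73 in Ppp1r15a and 0.674 in Ppp1r15b on the log2 scale. Of all genes tested, 15.5% had a called difference in either direction. The values for Ppp1r15a and Ppp1r15b are those whose call other settings removed. With 3 libraries per group no single library was tested as an outlier.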

How the results depend on the processing

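In TDP-43 + EA + Eda relative to TDP-43 + EA, all 8 calls held in all 22 settings, and DEGs among the members were 1 with library totals only and 2 to 5 when single libraries were left out. Library totals only moved the median of all genes to -0.30 (log2) in that comparison, -0.395 in TDP-43 + EA + Eda against Control and -0.325 in the interaction; relative to it the 8 members lay 0.635 to 1.75 higher in the first, as with TMM. Replicate numbers were not taken as pairs, because the sources do not tie them to experiments. Same-numbered libraries also correlated at only 0.0268 to 0.134 (Pearson r of deviations from group means). Even so, every library correlated best with its own number in each comparison, so whether a number marks an experiment stays unknown. With a replicate block 7 members in place of 5 were called in TDP-43 + EA against Control, through Atf4 (0.22, edgeR adjusted p = 0.00845) and Trib3 (0.36, edgeR adjusted p = 0.00813). Of all genes 5503 in place of 5065 were called there, and 4612 in place of 4027 in TDP-43 + EA + Eda relative to TDP-43 + EA. The block changed no other call of a member.

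In the interaction the genes called were 3304 with library totals only, 3229 and 3187 with limma-trend on log2(TPM + 1) and log2(TPM + 0.1), and 1356 (without Control replicate 1) to 2607 with single libraries left out, against 2045. Ppp1r15b was not called with library totals only (0.37, edgeR adjusted p = 0.0929) or on log2(TPM + 1) (0.35, limma adjusted p = 0.153). Ppp1r15a was at 0.42 and 0.43 there. In Eda against Control DESeq2 called 8 genes with plain or shrunken fold changes, and edgeR 1 gene with no count filter or with only the groups compared, and 0 to 1 with single libraries left out.

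Values near 0 changed sign. For Cebpd in TDP-43 + EA + Eda relative to TDP-43 + EA they were -0.21 with library totals only, -0.016 with upper quartile factors, -0.21 on log2(TPM + 1) and -0.21 on log2(TPM + 0.1), and -0.034 to 0.24 with single libraries left out. In TDP-43 + EA + Eda against Control these 4 settings gave Cebpd -0.32, -0.055, -0.39 and -0.395, the block -0.0047, and single libraries left out -0.12 to 0.18. For the interaction of Cebpd they gave -0.21, -0.00011, -0.23 and -0.23, and -0.028 to 0.26. Atf3 in TDP-43 + EA + Eda against Control was at -0.093 with library totals only and -0.14 on both TPM scales, and Atf5 at -0.0598, -0.12 and -0.14, while Atf3 was called higher in DESeq2 (0.29, adjusted p = 0.0275). In Eda against Control, library totals only, log2(TPM + 1) and log2(TPM + 0.1) gave Atf3 0.00198, 0.019 and 0.019, and Cebpd 0.00067, 0.023 and 0.023; both TPM scales gave Trib3 0.015. Leaving out single libraries there gave Atf3 -0.058 to 0.018, Cebpg -0.00062 to 0.084, Cebpd -0.15 to 0.095, Trib3 -0.11 to 0.033 and Ppp1r15b -0.17 to 0.014. In TDP-43 + EA against Control it gave Atf5 -0.53 to 0.22 and Cebpd -0.19 to 0.056. The median of all genes also moved with the scaling. Against Control, TDP-43 + EA + Eda had -0.395 with library totals only, -0.13 with upper quartile factors and -0.331 on log2(TPM + 1). Relative to TDP-43 + EA these medians were -0.297, -0.101 and -0.211, and in the interaction -0.325, -0.113 and -0.241. The cause of the sign changes was not tested.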
